A study of Mus musculus with 12 samples.

Results

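The antioxidant enzymes described here are the 3 superoxide dismutases of the mouse (Sod1, Sod2 and Sod3) and 7 other enzymes that remove reactive oxygen species or supply the cell's reducing power (Cat, Gpx1, Gpx3, Hmox1, Nqo1, Txnrd1 and Gclm). They were chosen by gene symbol, and each symbol matched 1 of the 46731 genes of the expression table. Of these 10 genes, 9 passed the filter on low values and were tested with the 12368 genes that passed it. Gpx3 did not pass and is given by its values.

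RNA-seq was performed on ATDC5 cells, a mouse line of teratocarcinoma origin that can be driven along the chondrocyte lineage. Cells carried a lentiviral short hairpin RNA, either a control (shRNA-NC) or a hairpin directed at the DEAD-box RNA helicase DDX5 (shRNA-Ddx5). Puromycin selection is stated for the shRNA-Ddx5 cells. Each kind of cell was left in medium or given IL-1β at 5 ng/ml together with TNF-α at 25 ng/ml for 6 h, a cytokine pair used to model the inflamed joint. The 4 groups have 3 libraries each, which the study's figure legends describe as biologically independent experiments. The control cells are labelled wildtype although they also carry a hairpin vector, so both sides of each knockdown comparison are vector-carrying cells. Whether the control cells were also selected is not stated. The number of independently derived stable lines behind each hairpin is not given in the sources used here, so an effect of DDX5 loss cannot be told apart from a difference between lines.

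As background, superoxide dismutases turn superoxide into hydrogen peroxide with a metal at the active site. SOD1 works in the cytosol with copper and zinc, SOD2 in the mitochondrial matrix with manganese, and SOD3 is secreted and binds the extracellular matrix of tissues such as cartilage. Catalase and the glutathione peroxidases remove the hydrogen peroxide, and the enzymes of glutathione and thioredoxin metabolism keep them supplied with electrons. Hmox1, Nqo1, Txnrd1 and Gclm are textbook targets of NRF2, a transcription factor (gene Nfe2l2) held in check by KEAP1, while Sod2 is a textbook target of NF-κB, the factor that IL-1β and TNF-α activate.

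The promoter stretches in which letters of these 2 factors' motifs were found are shown here, since both factors lie upstream of several of the enzymes. RefSeq promoter windows of build GRCm38.p6, from 250 bases before a gene's start to 50 after it, held 8 of the 10 genes, and Sod3 and Hmox1 were not among them. The NRF2 antioxidant response element core was searched as TGACNNNGC, or GCNNNGTCA on the other strand, and 12.4% of all 32851 windows hold it. It was found in Gclm, Sod1 and Txnrd1, each time on the strand opposite to the gene. The NF-κB consensus was searched by its standard κB form on both strands, and 8.46% of all windows hold it. Matches stood in Sod2, Cat, Gpx1 and Gpx3. The capitals mark the motif match, and each stretch is written 5′ to 3′ on the gene's own strand with 20 bases on either side. The Gclm stretch is chr3:122245403-122245451 (+), with the match 134 to 126 bases before the start. For Sod1 it is chr16:90220686-90220734 (+), 56 to 48 bases before, and for Txnrd1 chr10:82859094-82859142 (+), 92 to 84 bases before. The Sod2 stretch is chr17:13007736-13007785 (+), 83 to 74 bases before. For Cat it is chr2:103485240-103485289 (-), 116 to 107 bases before, and for Gpx1 chr9:108339005-108339054 (+), 55 to 46 bases before. The first 3 lines hold the antioxidant response element core and the last 3 the κB form.
Gclm: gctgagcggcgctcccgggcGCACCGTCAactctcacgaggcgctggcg
Sod1: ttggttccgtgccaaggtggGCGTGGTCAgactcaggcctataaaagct
Txnrd1: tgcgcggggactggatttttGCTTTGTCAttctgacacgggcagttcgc
Sod2: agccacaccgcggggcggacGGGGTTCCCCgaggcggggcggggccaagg
Cat: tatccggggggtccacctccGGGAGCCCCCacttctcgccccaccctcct
Gpx1: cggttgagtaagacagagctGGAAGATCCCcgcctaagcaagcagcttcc

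A match is only a run of letters and is not a measured binding site. The genes' own positions below are those of the expression table, which uses GRCm39 and therefore differs from the build of the promoter windows.

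Libraries held between 14119199 and 19276520 fragments assigned to genes. Levels are given as FPKM (fragments scaled by gene length and library size), a measure per length. Ddx5 itself was 325, 337 and 294 FPKM in shRNA-NC cells in medium against 90.7, 118 and 99.9 in shRNA-Ddx5 cells, and 327, 302 and 301 against 101, 93.6 and 104 with cytokines. The 12 genes of an early NF-κB response list were all higher with cytokines under both hairpins, and their summed level rose from 58.8 to 74.4 FPKM in shRNA-NC medium libraries to 3280 to 3972 with cytokines. Of 12 chondrogenic markers only 4 passed the filter, and Cnmd had no fragment and Acan had 18 over the 12 libraries. Others of that list were present. Sox9 had 14645 fragments over the 12 libraries, Sox5 8705, Col2a1 6887, Col11a1 3772 and Sox6 3526. Most of the list, though not all of it, was therefore low in these cultures. Fibroblast markers moved with the hairpin. Their summed level was 1652 to 2417 FPKM in shRNA-NC and 3091 to 3756 in shRNA-Ddx5 cells in medium, and 1500 to 1889 against 3053 to 3458 with cytokines. In bulk RNA, fewer cells of a type and less RNA per cell cannot be told apart, which holds for every value here.

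In short, the genes did not move as a block. Sod3 was more than 10-fold higher in shRNA-Ddx5 cells in either condition, Sod2 rose with cytokines and rose further when DDX5 was low, and Sod1 did not pass the test in any comparison. Gpx1 was higher in shRNA-Ddx5 cells, Hmox1 and Gclm were lower, and Txnrd1 was called lower with cytokines and not in medium. Differences below are between group means of log2(FPKM + 1), with standard errors and 95% intervals from a limma fit over all 12 libraries, and adjusted p-values are Benjamini-Hochberg values over the 12368 genes. A difference on this scale is smaller than the log2 of the FPKM ratio for a low gene such as Sod3. Ratios are ratios of mean FPKM. A gene is said to have risen or fallen where its adjusted p was under 0.05.

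The 4 comparisons gave these counts. With knockdown in medium, 3 of the 9 tested enzymes were higher (Sod3, Gpx1 and Nqo1) and 2 lower (Hmox1 and Gclm), where 25.3% of all tested genes were higher and 21.7% lower. With knockdown under cytokines, 3 were higher (Sod2, Sod3 and Gpx1) and 3 lower (Hmox1, Txnrd1 and Gclm), against 23.5% and 22.1% of all genes. Cytokines in shRNA-NC cells raised 6 (Sod2, Sod3, Gpx1, Hmox1, Txnrd1 and Gclm) and lowered 1 (Cat), against 18.6% and 15.2%. Cytokines in shRNA-Ddx5 cells raised 3 (Sod2, Sod3 and Hmox1) and lowered 2 (Cat and Nqo1), against 13.5% in each direction. By the interaction term, knockdown acted unequally in the 2 conditions for 1 enzyme in the upward direction (Sod2) and 2 in the downward (Txnrd1 and Nqo1), against 3.46% and 4.75% of genes.

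The 2 knockdown counts are near what these backgrounds would give for 9 genes, so the enzymes are described 1 by 1. The median log2 difference of the 9 enzymes was -0.03 for knockdown in medium, 0.01 for knockdown with cytokines, 0.40 for cytokines in shRNA-NC cells and 0.22 for cytokines in shRNA-Ddx5 cells. The medians of all tested genes were 0.03, 0.01, 0.02 and 0.00. How genome-wide calls split by direction depended on scaling. The share of called genes that were higher was 53.8% for knockdown in medium and 55.1% for cytokines in shRNA-NC cells, and it was 42.5% and 42.2% when libraries were scaled to their sum of fragments. Under quantile normalization it was 43.4% for cytokines in shRNA-NC cells and 39.0% for cytokines in shRNA-Ddx5 cells, the last against 49.97% here.

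**Figure D1:**
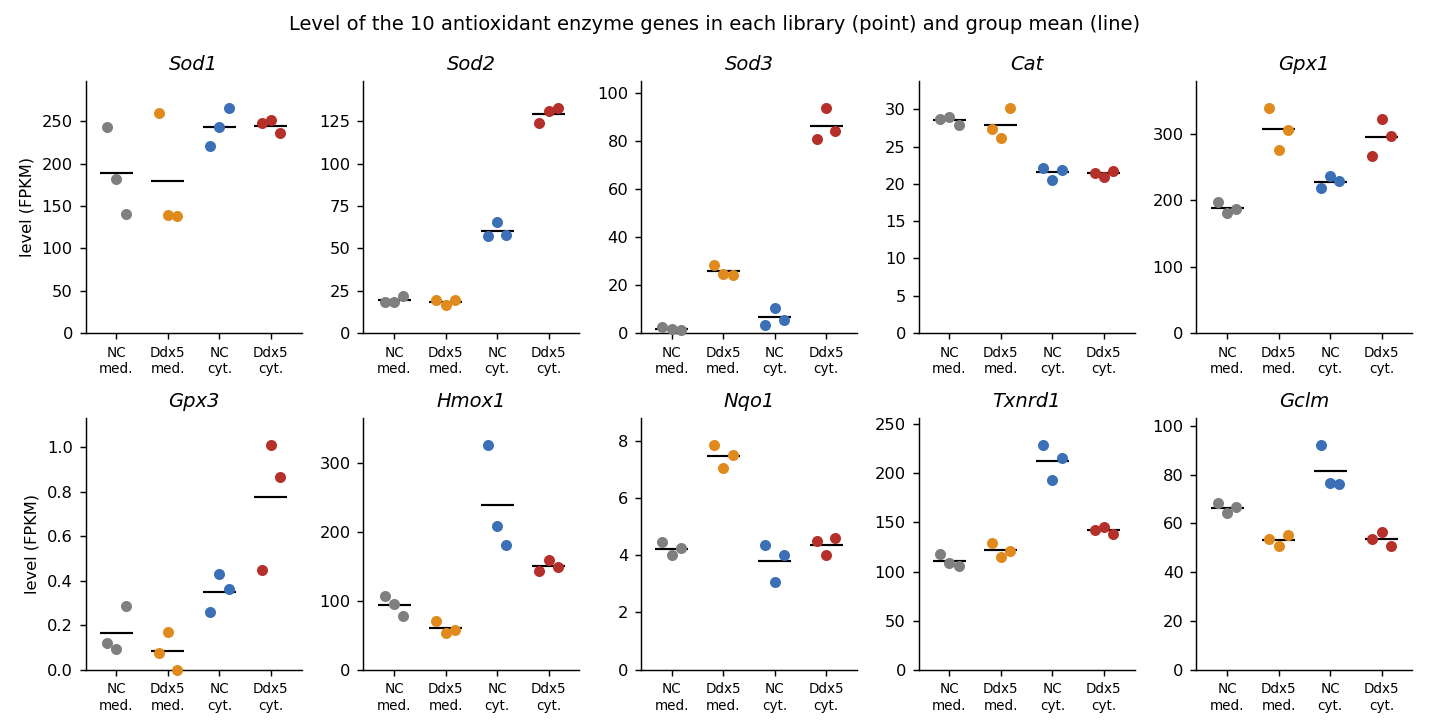
FPKM of each of the 10 genes (vertical axes, linear, from 0) in the 12 libraries, with medium (med.) and cytokines (cyt.) for each hairpin; points are libraries and the line is the group mean. Sod3 lies between 1.14 and 10.6 FPKM in the 6 shRNA-NC libraries and between 24.3 and 93.7 in the 6 shRNA-Ddx5 libraries.

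**Figure D2:**
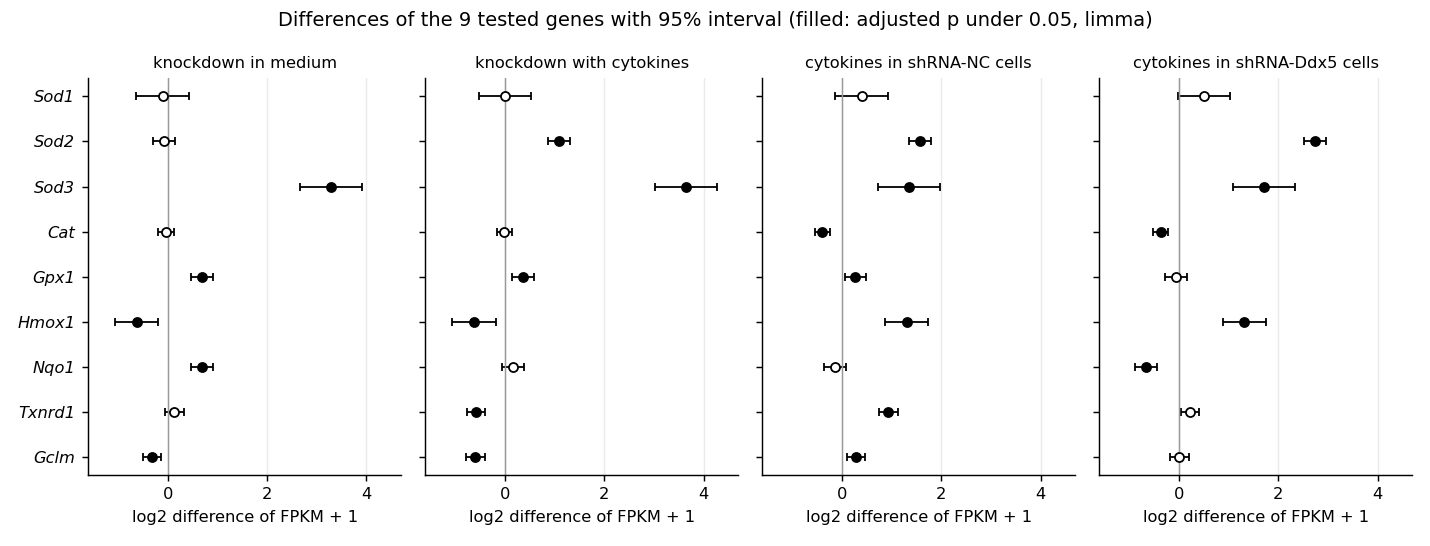
Log2 differences of the 9 tested genes in the 4 comparisons (difference of group means of log2(FPKM + 1)), with 95% intervals and filled points where the adjusted p is under 0.05. Sod3 stands apart in the knockdown comparisons at 3.29 and 3.65, and Sod2 in the cytokine comparisons at 1.57 and 2.74.

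Sod3, the extracellular enzyme, lies at chr5:52521146-52527080 on the plus strand, with 2045 bases of counted exon. It was the lowest of the 3 dismutases in control cells. Its level was 2.56, 1.64 and 1.14 FPKM in the shRNA-NC libraries in medium (replicates 1 to 3, the order used throughout), 28.3, 24.4 and 24.3 in shRNA-Ddx5 cells in medium, 3.51, 10.6 and 5.41 in shRNA-NC cells with cytokines, and 81.0, 93.7 and 84.2 in shRNA-Ddx5 cells with cytokines. These values rest on 35 to 108 fragments a library in the lowest group and 2710 to 3047 in the highest. The lowest knockdown library was above the highest control library in each condition, and also across conditions, and the cytokine libraries lay above the medium libraries of the same hairpin.

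Knockdown raised Sod3 from 1.78 ± 0.722 to 25.7 ± 2.27 FPKM in medium (SD, n = 3), a ratio of 14.4 and a log2 difference of 3.29 with an SE of 0.28 (limma adjusted p = 6.72e-06). With cytokines it was 6.51 ± 3.67 against 86.3 ± 6.61 FPKM (SD, n = 3), a ratio of 13.3 and a log2 difference of 3.65 (limma adjusted p = 3.08e-06). Ordered by rise, Sod3 stood at place 7 of 12368 genes in medium and at place 4 with cytokines. Cytokines raised it in both kinds of cells, by 3.66-fold in shRNA-NC cells (log2 difference 1.35, limma adjusted p = 0.00357) and by 3.36-fold in shRNA-Ddx5 cells (1.71, limma adjusted p = 0.000855). The 2 responses were not shown to differ, since the interaction was 0.36 with an interval of -0.51 to 1.23 (limma adjusted p = 0.632). In the control cells the cytokine response leaned on replicate 2, whose 10.6 FPKM was the highest of its group, and without that library the log2 difference was 0.98 and stayed past the threshold.

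Several marker lists moved with the hairpin beside Sod3. Of all tested genes, 25.3% were higher and 21.7% lower with knockdown in medium, and 23.5% and 22.1% with knockdown under cytokines. Of the 7 fibroblast markers tested, 4 were higher with knockdown in medium and 6 with knockdown under cytokines, and 0 were lower in either by limma, by an unadjusted p under 0.05 or with voom weights. Col3a1, a fibrillar collagen, was 12.2 against 274 FPKM in medium and 8.26 against 258 with cytokines. Of the 3 hypertrophic chondrocyte markers tested, 3 were higher with knockdown in medium and 2 with cytokines. Col10a1 and Ibsp of that list did not pass the filter, with 76 and 161 fragments over the 12 libraries. Alpl, alkaline phosphatase, was 0.789 against 15.3 FPKM in medium and 0.391 against 12.4 with cytokines. The other call with cytokines was Runx2, near the threshold (log2 difference 0.27, limma adjusted p = 0.048). The summed level of the 5 genes of that list was 16.6 to 20.8 FPKM in shRNA-NC and 50.2 to 53.3 in shRNA-Ddx5 cells in medium, and 18.5 to 48.0 against 52.0 to 56.2 with cytokines. Col2a1, the cartilage collagen, fell to 0.899 from 12.4 FPKM in medium and to 0.779 from 6.33 with cytokines, while the summed level of the 12 chondrogenic markers was 40.1 to 45.2 against 31.6 to 34.3 FPKM in medium and 13.1 to 18.3 against 10.6 to 10.7 with cytokines. Endothelial markers were close to absent, with Cdh5 at 0 fragments in all 12 libraries. Of the 7 macrophage and leukocyte markers, Ptprc also had 0 fragments, but 2 passed the filter. Cd14 was 3.88 FPKM in shRNA-NC and 4.29 in shRNA-Ddx5 medium libraries, and 7.17 against 9.50 with cytokines (log2 difference 0.37, limma adjusted p = 0.026). The median summed level of the 7 was 5.38 against 6.37 FPKM in medium and 8.62 against 11.8 with cytokines. The part of a shift in cell character in the Sod3 difference was not tested.

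Sod2, the mitochondrial manganese enzyme, lies at chr17:13226726-13237006 on the plus strand with 3824 bases counted. It was 18.2, 18.3 and 22.1 FPKM in shRNA-NC cells in medium and 19.6, 16.5 and 19.5 in shRNA-Ddx5 cells in medium. With cytokines it was 57.1, 65.3 and 57.9 in shRNA-NC cells and 124, 131 and 133 in shRNA-Ddx5 cells. The hairpins overlapped in medium and separated widely with cytokines.

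In medium, Sod2 was 19.6 ± 2.20 FPKM in shRNA-NC and 18.5 ± 1.78 in shRNA-Ddx5 cells (SD, n = 3), a log2 difference of -0.07 with an interval of -0.29 to 0.14 (limma adjusted p = 0.568). With cytokines it was 60.1 ± 4.51 against 129 ± 4.55 FPKM (SD, n = 3), a ratio of 2.15 and a log2 difference of 1.09 with an interval of 0.88 to 1.31 (limma adjusted p = 8.72e-06). Put as a cytokine response, Sod2 rose 3.07-fold in control cells and 6.98-fold when DDX5 was low. The log2 responses were 1.57 (limma adjusted p = 4.64e-07) and 2.74 (limma adjusted p = 4.68e-09). Their difference was itself past the threshold, at 1.17 with an SE of 0.14 (interaction, limma adjusted p = 0.000576, and 0.000426 to 0.0025 over 8 other settings of the fit). Of the cytokine-induced enzymes, Sod2 was the only 1 of the 9 tested whose response was larger in shRNA-Ddx5 cells by that test.

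Sod1, the cytosolic copper and zinc enzyme, lies at chr16:90017650-90023221 on the plus strand with 637 bases counted. Its 12 values were 244, 181 and 140 FPKM in shRNA-NC cells in medium, 260, 140 and 138 in shRNA-Ddx5 cells in medium, 221, 243 and 266 in shRNA-NC cells with cytokines, and 248, 252 and 236 in shRNA-Ddx5 cells with cytokines. All groups overlapped. The medium libraries were spread widely, with replicate 1 the highest under either hairpin, while the cytokine libraries were tight.

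The log2 difference of Sod1 with knockdown was -0.10 in medium (interval -0.63 to 0.42, limma adjusted p = 0.76) and 0.01 with cytokines (interval -0.51 to 0.54, limma adjusted p = 0.968). Cytokines gave 0.40 in shRNA-NC cells (limma adjusted p = 0.221) and 0.51 in shRNA-Ddx5 cells (limma adjusted p = 0.137). These intervals are wide, so Sod1 is not shown to be constant. Without replicate 1 of shRNA-Ddx5 in medium, the response to cytokines in shRNA-Ddx5 cells was 0.81 and passed the threshold (limma adjusted p = 0.00803). Sod1 also overlaps Scaf4 on the opposite strand, which stood at 6.36 to 11.8 FPKM, and has a processed copy, Gm8566, at 7.84 to 20.7 FPKM. Whether the counting used strand is not given in the sources used here, so reads could be shared among these genes.

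The makeup of superoxide dismutase mRNA therefore differed between the groups. Sod1 was 89.3% of the summed FPKM of the 3 genes in control cells in medium, with Sod2 at 9.84% and Sod3 at 0.826%. In shRNA-Ddx5 cells in medium Sod3 was 12.01% (9.19% to 13.5% over libraries), more than Sod2 at 8.74%. Control cells with cytokines held 78.5% Sod1, 19.5% Sod2 and 2.07% Sod3. Where both were combined, Sod1 held a share of 53.2%, with Sod2 at 28.1% and Sod3 at 18.7% (17.9% to 19.7%).

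The shares of Sod3 did not overlap between hairpins in either condition. The summed level was 209.8 ± 51.0 FPKM in control medium, 223 ± 73.0 in knockdown medium, 309.9 ± 25.2 in control cells with cytokines and 461 ± 13.6 in knockdown cells with cytokines (SD, n = 3). The last group lay above all other libraries, with 453, 476 and 453 FPKM against at most 329 elsewhere. An exact permutation test of 3 against 3 libraries cannot give a two-sided p below 0.1, so no single-gene permutation p is reported for the tested genes.

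**Figure D3:**
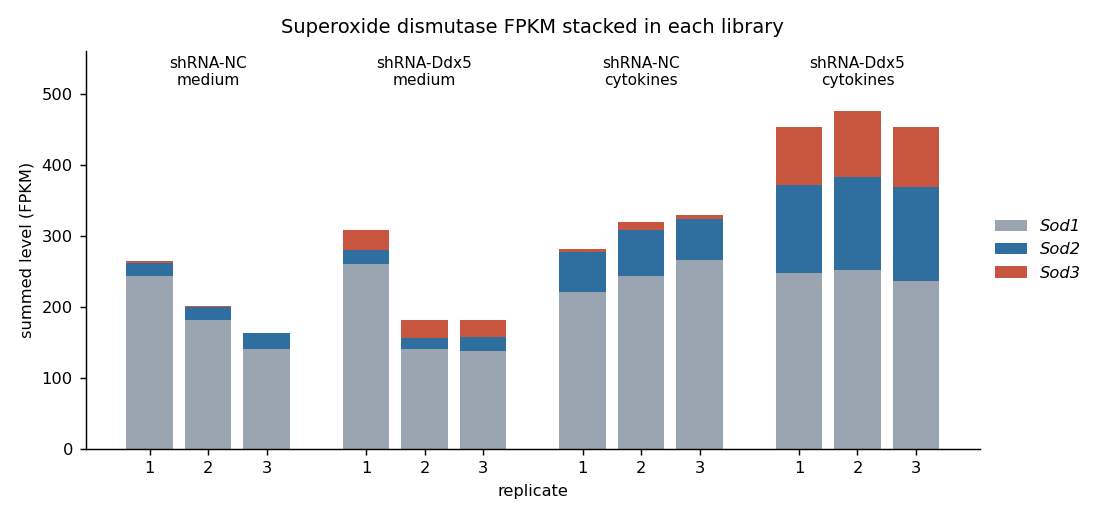
Stacked FPKM of Sod1, Sod2 and Sod3 in each of the 12 libraries (linear axis from 0), grouped by hairpin and treatment. The stacks of shRNA-Ddx5 with cytokines reach 453 to 476 FPKM and are the ones in which Sod2 and Sod3 together approach the Sod1 share.

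Genes that load or supply the metal were counted beside the dismutases. Of 13 tested genes of copper and manganese supply, 4 were higher and 3 lower with knockdown in medium, where 25.3% and 21.7% of all tested genes were, and 5 higher and 3 lower with cytokines, where 23.5% and 22.1% were. These shares lie near those of all genes. Slc39a14, a transporter that carries manganese and zinc into cells, rose from 7.09 to 27.5 FPKM with knockdown under cytokines (log2 difference 1.83, limma adjusted p = 8.27e-07). Its knockdown difference was larger with cytokines than in medium by 0.77 (interaction, limma adjusted p = 0.0133), the direction also seen for Sod2. Slc11a2, an iron and manganese transporter, rose with cytokines in control cells from 9.78 to 34.1 FPKM. Atp7a, the copper pump of the secretory route that supplies SOD3, fell from 10.3 to 4.67 FPKM with knockdown in medium. Ccs, the copper chaperone of SOD1, was 14.3 FPKM in control cells in medium and 22.1 in knockdown cells with cytokines and passed the threshold in none of the 4 limma comparisons. Atox1, the chaperone that hands copper to ATP7A, was 100.5 against 144 FPKM with knockdown under cytokines (log2 difference 0.52, limma adjusted p = 0.0093).

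Catalase, which splits hydrogen peroxide in peroxisomes, fell with cytokines. Cat, at chr2:103284249-103315498 on the minus strand (2551 bases counted), was 28.7, 28.9 and 27.9 FPKM in shRNA-NC cells in medium, 27.4, 26.1 and 30.2 in shRNA-Ddx5 cells in medium, 22.2, 20.5 and 21.9 in shRNA-NC cells with cytokines and 21.5, 20.9 and 21.8 in shRNA-Ddx5 cells with cytokines. Every cytokine library lay below every medium library, and the hairpins overlapped. Cytokines lowered Cat to 0.755 of its level in control cells (log2 difference -0.39, limma adjusted p = 0.00142) and to 0.767 in knockdown cells (-0.37, limma adjusted p = 0.00242). The knockdown differences were -0.03 in medium and -0.01 with cytokines (interval -0.16 to 0.15 for the latter), with limma adjusted p-values of 0.729 and 0.942.

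Gpx1, the main cytosolic glutathione peroxidase and a selenoprotein, lies at chr9:108216279-108217541 on the plus strand with 1045 bases counted. Its level was 197, 181 and 187 FPKM in shRNA-NC cells in medium and 339, 276 and 306 in shRNA-Ddx5 cells in medium. With cytokines it was 219, 237 and 230 in shRNA-NC cells and 267, 323 and 298 in shRNA-Ddx5 cells. All 6 knockdown libraries were above all 6 control libraries. In medium the mean rose from 189 ± 8.01 to 307 ± 31.8 FPKM (SD, n = 3), a ratio of 1.63 and a log2 difference of 0.70 (limma adjusted p = 0.000197), which was 0.36 under quantile normalization and still past the threshold. With cytokines the log2 difference was 0.37 (limma adjusted p = 0.0102), and it was 0.14 under quantile normalization (limma adjusted p = 0.151) and 0.30 without replicate 2 of shRNA-Ddx5 with cytokines (limma adjusted p = 0.0515). Cytokines in control cells gave 0.28 at the edge of the threshold (limma adjusted p = 0.0499), and 10 of the 12 leave-one-out fits and 6 of 9 other settings no longer called it, with a turned direction under quantile normalization (-0.025). Cytokines in knockdown cells gave -0.05 (limma adjusted p = 0.733).

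Gpx3, the secreted plasma glutathione peroxidase, lies at chr11:54793680-54801213 on the plus strand with 1618 bases counted. It was close to the limit of detection, with 4, 3 and 7 fragments in shRNA-NC libraries in medium, 2, 5 and 0 in shRNA-Ddx5 in medium, 7, 13 and 11 in shRNA-NC with cytokines and 12, 26 and 22 in shRNA-Ddx5 with cytokines. A count of 0 allows up to 3 fragments, for counting error alone. In FPKM these are 0.120, 0.0913 and 0.288, then 0.0752, 0.171 and 0, then 0.259, 0.429 and 0.362, and last 0.448, 1.01 and 0.864. The knockdown libraries with cytokines lay above all others. Their mean was 2.21 times that of the control libraries with cytokines, and the exact two-sided permutation p of 0.1 is the smallest this design allows. Only 1 library reached 1 FPKM, so the gene did not pass the filter. In the fit without a filter, the log2 difference with knockdown was -0.11 in medium (limma adjusted p = 0.611) and 0.38 with cytokines (limma adjusted p = 0.0462), and that with cytokines was 0.21 in shRNA-NC cells (limma adjusted p = 0.319) and 0.70 in shRNA-Ddx5 cells (limma adjusted p = 0.00331). The 6 medium libraries overlapped between hairpins.

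Hmox1, heme oxygenase 1, breaks heme down to biliverdin, iron and carbon monoxide. It lies at chr8:75820246-75827221 on the plus strand with 1576 bases counted. The values were 107, 95.6 and 77.4 FPKM in shRNA-NC cells in medium, 69.9, 52.5 and 57.9 in shRNA-Ddx5 cells in medium, 326, 208 and 181 in shRNA-NC cells with cytokines and 143, 159 and 148 in shRNA-Ddx5 cells with cytokines. Knockdown libraries lay below control libraries in each condition, although replicate 1 of control cells with cytokines stood well above the other two.

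Cytokines raised Hmox1 2.55-fold in control cells (log2 difference 1.31, limma adjusted p = 0.00047) and 2.50-fold in knockdown cells (1.32, limma adjusted p = 0.00044), and the interaction was 0.01 with an SE of 0.28. Knockdown lowered it to 0.645 of the control level in medium (log2 difference -0.62, limma adjusted p = 0.0224) and to 0.630 with cytokines (-0.62, limma adjusted p = 0.0243). Both knockdown calls lay close to the threshold. In medium the log2 difference stayed between -0.60 and -0.52, but the call was lost, without replicate 1 or replicate 2 of shRNA-NC or replicate 2 or replicate 3 of shRNA-Ddx5 in medium, with adjusted p-values up to 0.0784. The cytokine call was lost without replicate 1 of shRNA-NC (log2 difference -0.37, limma adjusted p = 0.0734) or replicate 1 or replicate 3 of shRNA-Ddx5.

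Nqo1, a quinone reductase that uses NAD(P)H, lies at chr8:108114856-108139012 on the minus strand with 3352 bases counted. It was the lowest of the 4 NRF2 targets. Its level was 4.44, 3.997 and 4.25 FPKM in shRNA-NC cells in medium, 7.85, 7.04 and 7.48 in shRNA-Ddx5 cells in medium, 4.34, 3.07 and 4.0003 in shRNA-NC cells with cytokines and 4.49, 4.01 and 4.60 in shRNA-Ddx5 cells with cytokines. The knockdown libraries in medium stood above the other 9, which overlapped. Knockdown raised it 1.76-fold in medium (log2 difference 0.69, limma adjusted p = 0.000275), opposite in direction to Hmox1 and Gclm. With cytokines the knockdown difference was 0.17 (limma adjusted p = 0.206). Cytokines lowered Nqo1 to 0.586 in knockdown cells (log2 difference -0.66, limma adjusted p = 0.000621) and gave -0.13 in control cells (limma adjusted p = 0.352). The interaction of -0.53 (interval -0.85 to -0.21) was only just past the threshold (limma adjusted p = 0.0492), and it stayed past it in 2 of 8 other settings and in 1 of 12 fits that left out a library.

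Txnrd1, cytosolic thioredoxin reductase and a selenoprotein, lies at chr10:82669785-82733558 on the plus strand with 4019 bases counted, and the low genes Eid3 and Gm38560 (at most 2.61 FPKM) overlap it. It was 118, 109 and 105 FPKM in shRNA-NC cells in medium and 129, 115 and 121 in shRNA-Ddx5 cells in medium. With cytokines it was 229, 193 and 216 in shRNA-NC cells and 143, 145 and 138 in shRNA-Ddx5 cells. The hairpins overlapped in medium, and with cytokines all control libraries lay above all knockdown libraries.

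Cytokines raised Txnrd1 1.92-fold in control cells (log2 difference 0.94, limma adjusted p = 1.19e-05) and gave a ratio of 1.17 in knockdown cells (0.22, limma adjusted p = 0.0761). The responses differed by -0.71 with an SE of 0.12 (interaction, limma adjusted p = 0.00455). That interaction kept its direction and stayed past the threshold in each of 8 other settings and 12 fits that left out a library. Knockdown gave 0.14 in medium (limma adjusted p = 0.211, and -0.15 under quantile normalization) and lowered Txnrd1 with cytokines to 0.667 of the control level (log2 difference -0.58, limma adjusted p = 0.000257). Sod2 and Txnrd1 thus had interactions of opposite sign, each past the threshold.

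Gclm, the modifier subunit of the enzyme that makes γ-glutamylcysteine for glutathione, lies at chr3:122039206-122060864 on the plus strand with 2072 bases counted, and a pseudogene, Gm6061 (4.62 to 11.2 FPKM), overlaps it. The level was 68.2, 64.1 and 66.8 FPKM in shRNA-NC cells in medium, 53.6, 50.8 and 55.1 in shRNA-Ddx5 cells in medium, 92.3, 76.7 and 76.0 in shRNA-NC cells with cytokines and 53.7, 56.5 and 50.9 in shRNA-Ddx5 cells with cytokines. Every knockdown library lay below every control library. Knockdown lowered Gclm to 0.801 of the control level in medium (log2 difference -0.32, limma adjusted p = 0.0106) and to 0.658 with cytokines (-0.59, limma adjusted p = 0.000228). Cytokines gave 0.01 in knockdown cells (limma adjusted p = 0.926) and 0.29 in control cells (limma adjusted p = 0.0227). The latter call was lost without replicate 2 of shRNA-NC in medium (limma adjusted p = 0.0774), without replicate 1 of shRNA-NC with cytokines (limma adjusted p = 0.0568), in a fit of the 6 libraries compared and under quantile normalization, where the log2 difference was 0.06. The interaction was -0.28 and did not pass the threshold (limma adjusted p = 0.197), so the cytokine responses of Gclm were not shown to differ.

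**Figure D4:**
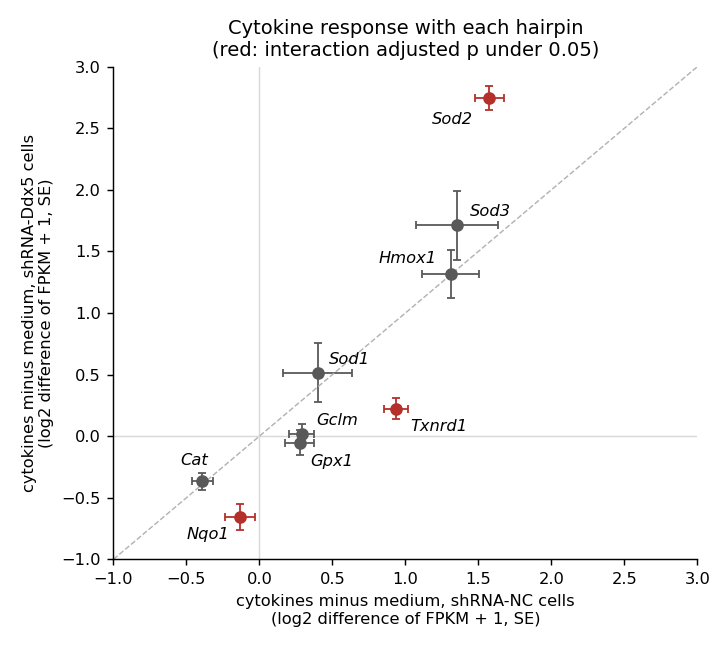
Log2 cytokine response (difference of group means of log2(FPKM + 1)) of each of the 9 tested genes in shRNA-NC cells (horizontal axis) and in shRNA-Ddx5 cells (vertical axis), with SE bars, the line of equal response, and red points where the interaction passed the threshold. Sod2 lies above the line at 1.57 and 2.74, and Txnrd1 and Nqo1 lie below it at 0.94 and 0.22 and at -0.13 and -0.66.

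The enzymes also changed order. By mean FPKM in control cells in medium they ran Gpx1, Sod1, Txnrd1, Hmox1, Gclm, Cat, Sod2, Nqo1, Sod3 and Gpx3, with the libraries of Gpx1 and Sod1 overlapping, as did those of Txnrd1 and Hmox1. In knockdown cells in medium, Sod3 stood beside Cat, and their libraries overlapped, above Sod2. In control cells with cytokines, Sod1, Hmox1, Gpx1 and Txnrd1 came first and each overlapped the next, and Sod2 had passed Cat. In knockdown cells with cytokines the order was Gpx1, Sod1, Hmox1, Txnrd1, Sod2, Sod3, Gclm, Cat, Nqo1 and Gpx3, so both inducible dismutases stood above Gclm and Cat. On the linear scale, cytokines added 40.6 FPKM of Sod2 and 4.73 of Sod3 in control cells, and 111 and 60.6 in knockdown cells.

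Patterns across the 12 libraries were compared with those of the other tested genes by Pearson correlation of log2(FPKM + 1), as a description, since the points share 4 groups. The gene most like Sod2 was Tlr2, a receptor for bacterial lipoproteins (0.995), followed by Ifih1 and Nos2 (0.993 each). The genes most like Sod3 were Igfbp7 (0.993), Ifi27 and Tbl3 (0.991 each). Sod1 was most like Rps15, a ribosomal protein gene (0.98), then a locus without a name (0.966) and Csnk2b (0.958).

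Genes of related pathways are given next by their counts, to be read against the shares of all tested genes, 25.3% higher and 21.7% lower with knockdown in medium and 23.5% and 22.1% with knockdown under cytokines. Of 12 tested regulators of NRF2, limma called 0 higher (1 at an unadjusted p under 0.05 and 0 with voom weights) and 3 lower with knockdown in medium, and 1 higher and 6 lower with knockdown under cytokines. Cytokines in control cells raised 6 by limma, and lowered 0 by limma, by unadjusted p and with voom weights. In that comparison 18.6% of all tested genes were higher and 15.2% lower. Nfe2l2 itself was 24.1 ± 0.857 FPKM in control and 19.4 ± 2.19 in knockdown cells in medium (SD, n = 3), with a log2 difference of -0.30 (limma adjusted p = 0.0582). It was 39.2 ± 7.61 against 28.1 ± 0.812 with cytokines (SD, n = 3), a log2 difference of -0.45 (limma adjusted p = 0.0104). Cytokines raised Nfe2l2 by 0.66 in control and 0.52 in knockdown cells. Keap1 was 16.7 against 22.4 FPKM with knockdown under cytokines (log2 difference 0.41, limma adjusted p = 0.0629). Bach1, which represses Hmox1, was lower with knockdown in both conditions, with 8.40 against 5.06 FPKM in medium and 8.46 against 5.41 with cytokines. Sqstm1, whose protein p62 binds KEAP1, fell to 77.4 from 163 FPKM in medium and to 124 from 366 with cytokines (log2 difference -1.55, limma adjusted p = 4.83e-06).

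Other textbook NRF2 targets were compared in the same way. Of 19 tested, 10 rose in medium and 0 fell by limma (1 at an unadjusted p under 0.05 and 0 with voom weights), and 8 rose and 3 fell with knockdown under cytokines. Akr1b3, aldose reductase, rose from 105 to 275 FPKM with knockdown under cytokines (log2 difference 1.39), and Ugdh, which makes UDP-glucuronate, rose from 39.4 to 101 (1.34). The 3 lower genes included Osgin1 and Slc6a9, a glycine transporter.

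Genes of glutathione metabolism were called in both directions. Of all tested genes, 25.3% were higher and 21.7% lower with knockdown in medium, and 23.5% and 22.1% with knockdown under cytokines. Among 12 tested genes of glutathione synthesis, reduction and other peroxidases, 4 rose and 3 fell with knockdown in medium and 3 rose and 3 fell with cytokines. These counts are near the shares of all genes. Slc7a11, the cystine importer, fell from 4.05 to 1.28 FPKM in medium (log2 difference -1.16, limma adjusted p = 0.000228) and was 24.0 against 7.73 FPKM with cytokines (-1.49, limma adjusted p = 3.72e-05). Gclc, the catalytic partner of Gclm, fell from 43.9 to 25.9 FPKM with knockdown under cytokines (-0.72, limma adjusted p = 0.000961). Gpx7 and Gpx8, peroxidases of the endoplasmic reticulum, rose with knockdown in medium by 1.51 and 0.68 on the log2 scale. Glutathione S-transferases gave 3 higher and 2 lower of 14 in medium and 4 higher and 1 lower with cytokines, against the same shares. Gstm2 stood at 0.297 against 7.72 FPKM in medium, although reads of this family can be shared between near-identical members.

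The thioredoxin system gave other counts in each condition, a difference that was tested only gene by gene. By interaction, limma called 0 of its 22 tested genes higher (2 at an unadjusted p under 0.05 and 0 with voom weights). It called 3 lower, where 3.46% of all tested genes were higher and 4.75% lower. Of 22 tested genes of peroxiredoxins and the thioredoxin system, 9 rose and 2 fell with knockdown in medium, while 3 rose and 6 fell with knockdown under cytokines. The shares of all tested genes were 25.3% higher and 21.7% lower, then 23.5% and 22.1%. Prdx3, the mitochondrial peroxiredoxin, rose from 46.3 to 72.8 FPKM in medium, and Srxn1, sulfiredoxin, fell from 48.0 to 29.0 FPKM with cytokines (log2 difference -0.69, limma adjusted p = 0.000699). Glrx, a glutaredoxin, rose with cytokines in control cells by 2.17 on the log2 scale. Its response was smaller in knockdown cells by an interaction of -0.78 (limma adjusted p = 0.0253), the sign found for Txnrd1.

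Selenium handling bears on Gpx1 and Txnrd1, which both contain selenocysteine. Of 18 tested genes of selenoprotein synthesis and other selenoproteins, 6 rose and 3 fell with knockdown in medium and 6 rose and 2 fell with cytokines, which is not far from the shares of all genes (25.3% and 21.7%, then 23.5% and 22.1%). Selenoh rose by 0.98 and 0.82, and Selenoo fell by 0.70 and 0.40, on the log2 scale in medium and with cytokines. Among 13 tested genes of heme breakdown and supply, 3 rose and 5 fell with knockdown in medium and 4 rose and 1 fell with cytokines, against the same shares. Hmox2, the constitutive heme oxygenase, was among those lower in medium (fell by 0.54 on the log2 scale). Only 5 of 19 genes of superoxide sources were tested, too few to set against those shares. With knockdown in medium 0 rose by limma, by an unadjusted p under 0.05 or with voom weights, and 1 fell by limma. With knockdown under cytokines 1 rose and 2 fell. Noxo1, an organizer of NADPH oxidase, was 2.51 against 1.21 FPKM, and Aox1, an aldehyde oxidase, 2.05 against 1.01, both lower with knockdown. Xdh, xanthine dehydrogenase, rose from 0.938 to 3.44 FPKM with knockdown under cytokines (log2 difference 1.205, limma adjusted p = 6.78e-05), with an interaction of 1.25 (limma adjusted p = 0.00427).

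**Figure D5:**
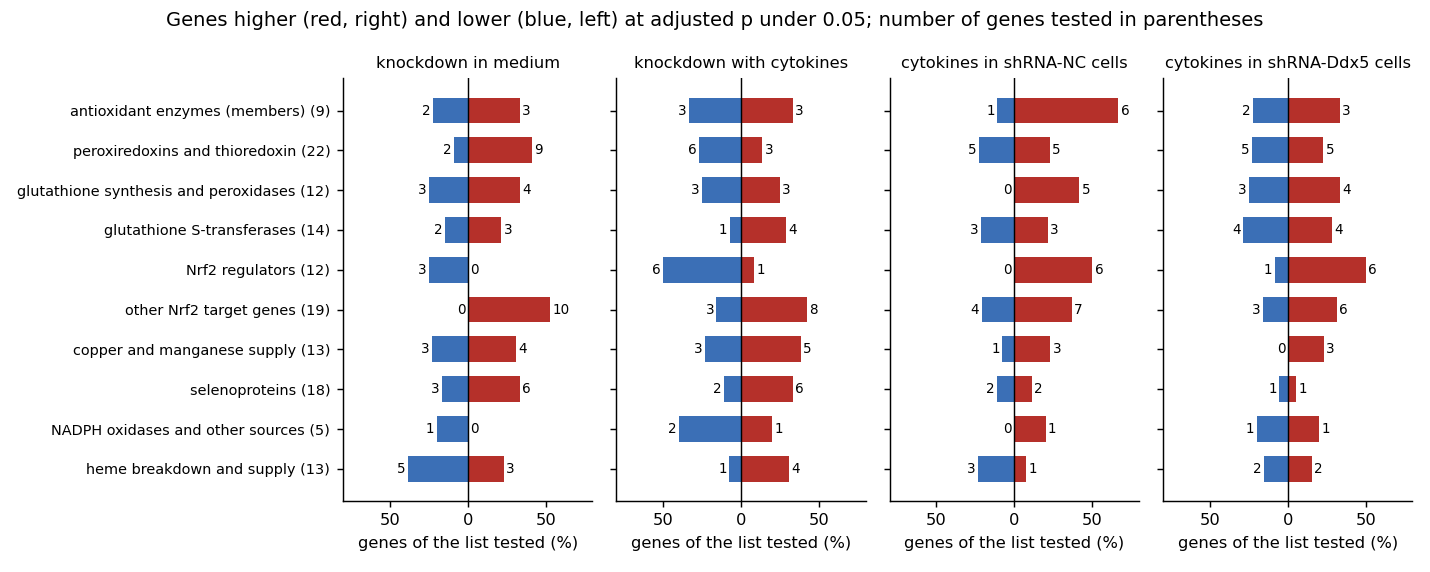
Percent of the tested genes of each list called higher (to the right) and lower (to the left) at an adjusted p under 0.05 in each of the 4 comparisons. With knockdown, 3 of 12 regulators of NRF2 are lower in medium and 6 of 12 with cytokines, and 10 of 19 other NRF2 target genes are higher in medium and 8 of 19 with cytokines.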

How the data were processed

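RNA-seq libraries of 12 ATDC5 cultures were analysed from the table of gene expression that the authors deposited, which holds FPKM values for 46731 genes. The submitters' processing notes name mm10, HISAT2 2.0.5, featureCounts 1.5.0-p3, DESeq2 1.20.0 and GATK 3.7, while the study's methods name another version of featureCounts and say that reads were paired-end. The gene coordinates in the table are those of GRCm39. Strand use in counting is not given in the sources used here. Multiplying FPKM back by gene length and a per-library factor gave whole fragments, with a largest distance of 3.06e-10 from a whole number, and that factor matched the median-of-ratios size factor, so these FPKM do not share a common sum.

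Groups were taken from the labels. Genes reaching 1 FPKM in 3 or more libraries were fitted as log2(FPKM + 1), with a pseudocount of 1, in limma 3.58.1 (R 4.3.3), with 4 group means, all 12 libraries and a trended prior, with Benjamini-Hochberg adjustment and calls under 0.05. The code was tested on simulated data. The fit was repeated with a pseudocount of 0.1, without a filter and with a stricter one, with quantile normalization, scaling to the sum of fragments, voom weights on fragments, an untrended prior, only the 6 libraries compared, a replicate block and leaving out each library. Genes named from the lists were picked from the first 2 in each direction by log2 difference in a comparison, plus Nfe2l2, Keap1, Bach1, Ccs and Atox1. Not all of those first 2 are named, and some cell type markers were named for their low or high fragment counts. The enzymes and the lists were chosen with earlier results of these data known. Replicate numbers were not taken to pair the libraries, and p-values measure the spread between these cultures. Precision rests on 14119199 to 19276520 fragments a library. Promoter sequences came from RefSeq.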

Additional observations from a re-analysis of the deposited data

Results flagged for a closer look

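For 3 of the 9 tested enzymes the limma interaction passed the threshold (effect of knockdown with cytokines minus effect in medium, log2 scale). Among all tested genes 3.46% were called higher and 4.75% lower by it. Sod2 gave 1.17, since the hairpins overlapped in medium and all 3 knockdown libraries were higher with cytokines. Txnrd1 gave -0.71, with an overlap in medium and all 3 knockdown libraries lower with cytokines. Nqo1 gave -0.53, since all 3 knockdown libraries were higher in medium and the groups overlapped with cytokines. This value is at the threshold and stayed past it in only 2 of 8 other settings and 1 of 12 fits that left out a library.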

How the results depend on the processing

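The counts of called enzymes moved as follows. Requiring an absolute log2 difference of at least 1 left 1 higher and 0 lower with knockdown in medium, 0 lower with knockdown under cytokines, 3 higher and 0 lower with cytokines in shRNA-NC cells, 0 lower with cytokines in shRNA-Ddx5 cells and 0 lower by interaction. Without a filter 1 was lower with knockdown in medium (Gclm), and Hmox1 lost its call in both conditions (limma adjusted p = 0.0557 and 0.0601). By interaction 1 (Txnrd1) was lower with a pseudocount of 0.1, with no filter, with FPKM of at least 1 in every library, under quantile normalization, with scaling to fragments and with voom, where Nqo1 had adjusted p-values of 0.0508 to 0.0828. Directions turned under quantile normalization for Txnrd1 (knockdown in medium, -0.15), Sod1 (knockdown with cytokines, -0.21), Gpx1 (cytokines in shRNA-NC cells, -0.025) and Gclm (cytokines in shRNA-Ddx5 cells, -0.11). They turned with scaling to fragments for Sod1 (-0.043) and Gclm (-0.028) in the same comparisons, and with voom for the Sod3 interaction (-0.012). Quantile normalization also called Gpx1 lower with cytokines in shRNA-Ddx5 cells (-0.25, limma adjusted p = 0.0316). The cause was not tested.

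Leaving out each library gave 1 to 2 lower with knockdown in medium, 3 to 5 higher with cytokines in shRNA-Ddx5 cells and 1 to 2 lower by interaction. It gave 4 to 6 higher with cytokines in shRNA-NC cells, and 2 to 3 higher and 2 to 3 lower with knockdown under cytokines. Log2 differences ranged as follows. With knockdown in medium Sod1 ran from -0.40 to 0.10, Sod2 from -0.12 to 0.013 and Cat from -0.089 to 0.011. With knockdown under cytokines Sod1 ran from -0.053 to 0.080 and Cat from -0.041 to 0.014. With cytokines in shRNA-Ddx5 cells Gpx1 ran from -0.13 to 0.021 and Gclm from -0.023 to 0.051. Interactions ran from -0.087 to 0.42 for Sod1, -0.019 to 0.081 for Cat and -0.17 to 0.25 for Hmox1. Without replicate 1 of shRNA-Ddx5 in medium, Sod1 and Txnrd1 were called higher with cytokines in shRNA-Ddx5 cells (0.81 and 0.27).

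Over all genes, the interaction called 255 higher where FPKM was at least 1 in every library, against 428. Leaving out a single library gave as few as 238 higher and 321 lower (without replicate 3 of shRNA-Ddx5 with cytokines), against 428 and 588. Without replicate 3 of shRNA-Ddx5 in medium 1080 were lower with cytokines in shRNA-Ddx5 cells, against 1673. Deviations of same-numbered libraries from their group means correlated at 0.448, 0.043 and 0.313 between the hairpins in medium and at -0.394 to 0.123 in the other 5 pairs of groups. In medium 4 of the 6 libraries correlated best with their own number. Not every correlation was over 0.1 in any pair of groups and no source ties the numbers to a shared culture, so they were not used as pairs. With the replicate block the interaction called 293 higher and 394 lower, and among the enzymes Gpx1 lost its call for cytokines in shRNA-NC cells (limma adjusted p = 0.0873) and no other call changed. Depth limits Gpx3 and Sod3 in control cells.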

Other observations

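In medium, replicate 1 was the library with the most Sod1 under either hairpin, at 244 FPKM in shRNA-NC and 260 in shRNA-Ddx5 cells, against 138 to 181 in the other 4 medium libraries. Hmox1, Txnrd1 and Gclm were each highest in replicate 1 of shRNA-NC with cytokines, at 326, 229 and 92.3 FPKM, and Sod3 was highest in replicate 2 of that group, at 10.6 FPKM.

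Slc39a8, a manganese and zinc importer related to Slc39a14, had 1.15 against 0.152 FPKM with knockdown in medium and 0.747 against 0.138 with cytokines, opposite in direction to Slc39a14.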
